A study of Mus musculus with 42 samples.

Results

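The genes described here encode the liver's bile acid receptor and its partner repressor, the receptor pair that answers the intestinal bile acid signal, and the membrane proteins that move bile acids and phospholipid across the hepatocyte. They were chosen by symbol: Nr1h4, Nr0b2, Fgfr4, Klb, Abcb11, Abcb4, Atp8b1, Slc10a1 and Slc51b, 9 of the 55573 gene identifiers in each count table. All 9 were found in both tables, and all 9 passed the filter on low counts in both. The study measured liver mRNA of male C57B6/J mice given corticosterone (CORT), the main glucocorticoid of rodents, enzalutamide (ENZA), an androgen receptor antagonist, or both. In the acute arm, 6 libraries each came from vehicle, CORT, ENZA and CORT+ENZA mice. In the chronic arm, 6 each came from vehicle, CORT and CORT+ENZA mice, and chronic ENZA alone was not analysed here. The mice are otherwise untreated animals of that strain as far as the labels state, and the sources used here give no dose, route or day. Each library carries a number of its own and is taken as 1 mouse, which the labels do not spell out, so the p-values measure the spread between these libraries.

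Bile acids are made from cholesterol in hepatocytes, pumped across the canalicular membrane into bile, taken up again in the ileum and returned to the liver through the portal blood. The nuclear receptor FXR, encoded by Nr1h4, binds bile acids; it is known to switch on the repressor SHP (Nr0b2), the canalicular bile salt export pump (Abcb11) and the basolateral exporter subunit OSTβ (Slc51b), and in the ileum the hormone FGF15. FGF15 acts on hepatocytes through the receptor FGFR4 and its co-receptor β-Klotho (Klb), and lowers bile acid synthesis.

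FXR binds, with its partner RXR, an inverted repeat of the nuclear receptor motif AGGTCA with 1 base between the copies (AGGTCANTGACCT, known as IR-1). The promoters of 4 members are shown because the results below turn on these members and their promoters differ in how near they come to this motif. They run from 250 bases before to 50 bases after the start, on the gene's own strand, as RefSeq gives them for GRCm38.p6. The start used for Nr1h4 lies inside the annotated gene (chr10:89454234-89533585). The stretch before the gene's outer end was not searched, so the Nr1h4 matches hold for this internal start only. Capitals mark the 13-base window with the fewest mismatches to IR-1.
Abcb11, chr2:69342567-69342866, minus strand: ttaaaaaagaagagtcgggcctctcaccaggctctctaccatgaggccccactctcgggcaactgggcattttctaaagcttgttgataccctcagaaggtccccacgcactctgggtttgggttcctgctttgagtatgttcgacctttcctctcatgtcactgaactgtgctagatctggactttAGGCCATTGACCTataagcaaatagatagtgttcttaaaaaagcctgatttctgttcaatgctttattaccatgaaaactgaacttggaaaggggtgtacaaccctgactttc
Slc51b, chr9:65422724-65423023, minus strand: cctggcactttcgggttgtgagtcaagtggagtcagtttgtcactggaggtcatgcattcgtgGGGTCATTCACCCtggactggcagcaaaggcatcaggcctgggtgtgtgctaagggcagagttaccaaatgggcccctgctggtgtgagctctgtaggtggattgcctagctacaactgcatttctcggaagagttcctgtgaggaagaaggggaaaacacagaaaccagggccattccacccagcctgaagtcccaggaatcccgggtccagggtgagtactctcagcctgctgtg
Nr1h4, chr10:89506609-89506908, minus strand: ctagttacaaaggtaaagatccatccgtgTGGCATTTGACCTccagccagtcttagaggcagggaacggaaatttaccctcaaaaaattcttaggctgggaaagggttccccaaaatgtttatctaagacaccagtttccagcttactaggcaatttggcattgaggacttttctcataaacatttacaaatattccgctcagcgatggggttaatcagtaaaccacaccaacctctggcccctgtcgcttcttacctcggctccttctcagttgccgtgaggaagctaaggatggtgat
Klb, chr5:65348161-65348460, plus strand: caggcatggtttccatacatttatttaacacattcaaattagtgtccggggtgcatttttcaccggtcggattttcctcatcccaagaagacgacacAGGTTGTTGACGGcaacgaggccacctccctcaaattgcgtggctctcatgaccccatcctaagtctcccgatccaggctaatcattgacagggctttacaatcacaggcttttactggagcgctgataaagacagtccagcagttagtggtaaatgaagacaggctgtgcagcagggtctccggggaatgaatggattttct
The Abcb11 window, AGGCCATTGACCT, began 63 bases before the start (position -63) and had 1 mismatch among the 12 fixed letters. Of 32851 mouse promoters of the same length, searched on both strands, 27 (0.0822%) held a window with at most 1 mismatch. The Slc51b window, GGGTCATTCACCC at position -187, had 3 mismatches, a level reached by 11.4% of promoters. The 2 promoters of Slc10a1 came equally near, with 3 mismatches each, while Nr1h4, Nr0b2, Abcb4, Fgfr4 and Klb had 4, a level reached by 56.4%. The single motif AGGTCA, which is part of IR-1, was present on either strand in the promoters of Nr1h4, Abcb11 and Slc51b and in 1 of the 2 of Slc10a1, against 16.3% of all promoters. The steroid receptor motif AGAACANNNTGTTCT, searched on both strands, came nearest in the Abcb11 promoter, with 3 mismatches, a level reached by 14.5% of promoters. The promoters of 8 members were looked at for these motifs, and Atp8b1 was left out. These matches describe letters in a 300-base window and are not evidence of binding.

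Gene counts per library ran from 18674151 to 20464521 in the acute arm and from 15381724 to 19581723 in the chronic arm. Levels are given as CPM, counts relative to the library total, with library sizes scaled by the trimmed mean of M-values (TMM), within an arm. RNA of the 2 arms was isolated with different kits, so arm and kit cannot be told apart and levels are not compared between arms. Hepatocyte markers such as albumin were high in every library, at 64372 to 141690 CPM summed over 8 genes. Of 5 ileal enterocyte markers, Fabp6 and Fgf15 were at 0 in every library, but the list summed to 35.3 to 204 CPM. Its markers Fabp2 and Slc10a2 averaged 22.0 and 23.2 CPM in acute vehicle mice. In chronic CORT mice they averaged 114 and 27.3 CPM, but these groups differ in arm, kit and treatment. Within the chronic arm, the log2 fold change of CORT against vehicle was 0.60 for Fabp2 and -0.38 for Slc10a2. In the acute arm it was 0.10 and 0.56. Slc10a2 also stands on the list of cholangiocyte markers used below. In the acute arm the vehicle library L19A and the CORT+ENZA library L36A stood at the far end of the second principal component (scores of 45.2 and 34.8, against -21.5 to 18.3 for the other libraries). In the chronic arm the vehicle library 11 scored 10.3 on the first component, against 34.6 to 41.6 for the other vehicle libraries, and the CORT+ENZA library 18 scored 16.0, against -20.9 to -9.71 for its group. Results that depend on these libraries are given with and without them.

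Per kilobase of exon, the uptake carrier was the most abundant member and the basolateral exporter subunit the least. Slc10a1, which encodes the sodium-dependent bile acid uptake carrier NTCP, stood at 391 ± 31.8 CPM per kb in acute vehicle mice and 468 ± 44.5 in chronic vehicle mice (SD, n = 6). Abcb11 followed at 97.2 ± 16.8 and 150 ± 14.1 CPM per kb, and Nr1h4 at 65.0 ± 10.1 and 44.2 ± 8.35. Abcb4, Fgfr4 and Nr0b2 came next, in an order that differed between the arms, followed by Klb and Atp8b1. The length used is that of all exons of a gene merged. For Abcb4 it is 9383 bases, against 4079 for the longest transcript, so the level per kb of Abcb4 would be higher by transcript length. Its place in the order depends on this choice. Slc51b lay at 0.330 ± 0.317 CPM per kb in acute and 0.346 ± 0.269 in chronic vehicle mice. Neighbours in this order overlapped in range from Abcb4 to Atp8b1 in acute vehicle mice, and also at Abcb11 and Nr1h4. In chronic vehicle mice Nr1h4, Nr0b2 and Abcb4 formed an overlapping run, as did Fgfr4, Klb and Atp8b1.

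**Figure D1:**
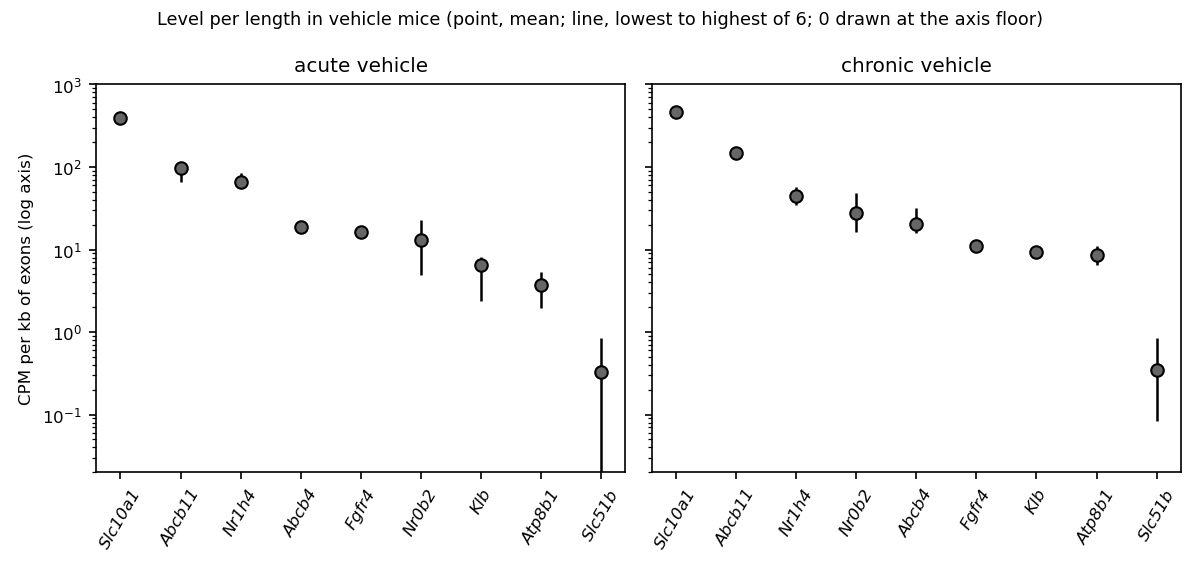
Mean level per kilobase of exon (CPM per kb, log axis) of the 9 genes in acute vehicle mice (left) and chronic vehicle mice (right); points are means of 6 libraries and lines run from the lowest to the highest. Slc10a1 stands at 391 and 468 CPM per kb and Slc51b at 0.330 and 0.346.

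The genes differed in how steady they were within a group. Over the 24 acute libraries the within-group SD of log2 CPM was 0.72 for Nr0b2 and 0.87 for Slc51b, larger than that of 97.9% and 99.1% of the 13733 genes tested. Slc10a1 was the steadiest member there, with an SD of 0.14. In the chronic arm Slc51b again varied most (SD 0.97, above 99% of 13099 genes), followed by Nr0b2 (0.43, above 80%), while Fgfr4 and Klb varied least (0.15 and 0.16). Slc51b rests on few reads, at 0 to 12 counts per library in acute vehicle mice and 1 to 10 in chronic vehicle mice. A count of 0 in the acute vehicle libraries L1A and L7A and in the chronic CORT library 26 allows up to 0.139, 0.151 and 0.159 CPM (3 counts), for counting error only.

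In the chronic arm, CORT alone went with higher mRNA of the receptors and of the export pump, and adding ENZA went with lower receptor and uptake carrier mRNA but with export pump mRNA higher still. By edgeR's quasi-likelihood test at a Benjamini-Hochberg adjusted p under 0.05, 4 of the 9 genes were higher in CORT than in vehicle mice (Nr1h4, Klb, Fgfr4 and Abcb11) and 0 were lower; of all genes tested 18.3% passed, 9.04% higher and 9.29% lower. In CORT+ENZA against CORT mice, 4 were lower (Nr1h4, Klb, Fgfr4 and Slc10a1) and 1 was higher (Abcb11), against 11.8% of all genes, 6.99% higher and 4.86% lower. In CORT+ENZA against vehicle mice, 3 were higher (Abcb11, Abcb4 and Slc51b) and 0 were lower, against 18.6% of all genes, 10.3% higher and 8.29% lower. The median log2 fold change of the 9 was 0.41, -0.16 and 0.06 in these comparisons, against -0.01, -0.0031 and -0.01 for all genes. The first and the second comparison share the CORT mice, and the first and the third share the vehicle mice.

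The summed hepatocyte markers were lower in chronic CORT+ENZA mice, at 64372 to 84764 CPM, than in CORT mice (93723 to 129021) or vehicle mice (103809 to 121478). Most of the sum is Alb, which averaged 80187 CPM in CORT mice, where the summed median was 103106 CPM. The sum thus mainly follows Alb. With added ENZA, Apob, Cps1, Apoa1, Asgr1 and Tat did not pass. Of the 8 markers, 2 rose and 0 fell with CORT, Apob by 0.41 ± 0.12 (adjusted p = 0.01715) and Hnf4a by 0.27 ± 0.09 (adjusted p = 0.04675), and 3 fell in CORT+ENZA against CORT mice (Alb, Ttr and Hnf4a). The summed markers of Kupffer cells, the liver's macrophages, ran from 160 to 726 CPM in CORT+ENZA, 112 to 196 in CORT and 129 to 417 in vehicle mice, with 2 of 10 higher in CORT+ENZA than in CORT mice and 2 of 10 lower in CORT than in vehicle mice. Cholangiocyte markers summed to 71.3 to 116, 66.6 to 82.5 and 72.2 to 110 CPM in the same order, and the groups overlapped. Of 6 sinusoidal endothelial markers 0 passed in any chronic comparison by edgeR; of 6 stellate cell markers 1, Col3a1, was lower with CORT and higher with added ENZA; and the 4 measured B cell markers were lower with CORT. The part of these shifts in the results below was not tested, and in whole liver fewer cells of a type and less RNA per cell cannot be told apart.

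**Figure D2:**
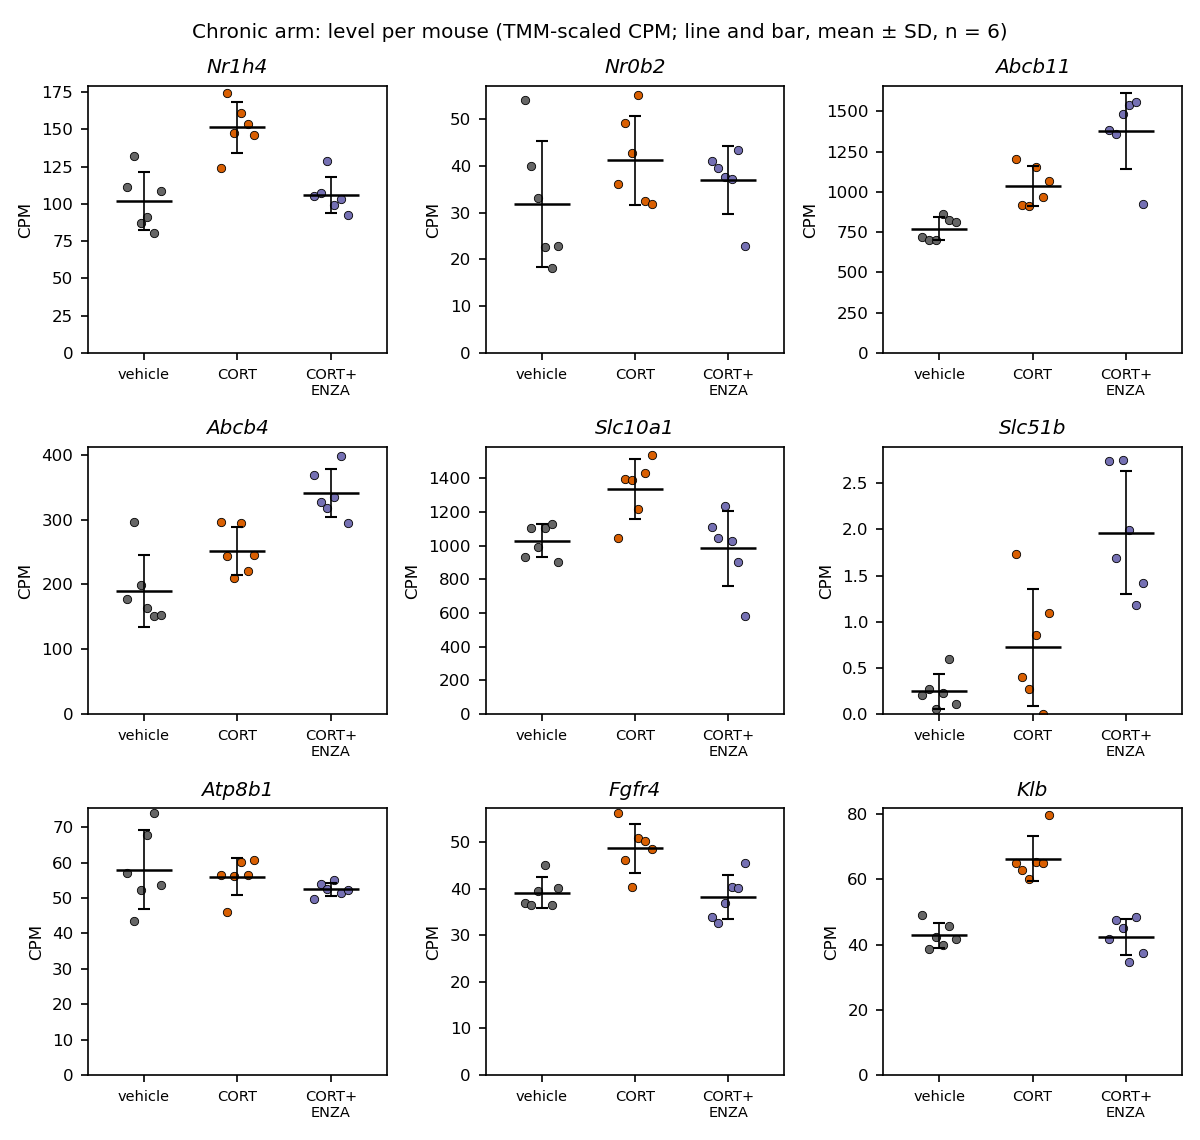
Level of each of the 9 genes in every chronic library (CPM), by group; points are libraries, lines and bars the mean ± SD of 6. Klb stands at 60.2 to 79.6 CPM in CORT mice, above all vehicle (38.8 to 49.0) and CORT+ENZA mice (34.7 to 48.4), while Abcb11 stands highest in CORT+ENZA mice.

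Nr1h4, the bile acid receptor gene (chr10:89454234-89533585 on GRCm38, minus strand), rose under chronic CORT and was lower again with ENZA. Its lowest, median and highest levels were 80.3, 99.9 and 132 CPM in vehicle mice. In CORT mice they were 124, 151 and 174 CPM. In CORT+ENZA mice they were 92.9, 104 and 129 CPM. The CORT mice all lay above the median vehicle mouse, and the ranges overlapped between 124 and 132 CPM. The CORT effect was a log2 fold change of 0.57 ± 0.11 (SE; 1.49-fold, adjusted p = 0.001667), and adding ENZA lowered it by a log2 fold change of -0.51 ± 0.11 (adjusted p = 0.005626; lower in 6 of 6 mice than the median CORT mouse). CORT+ENZA and vehicle mice differed by 0.06, with a 95% interval from -0.17 to 0.29.

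Nr0b2, which encodes the repressor SHP that carries FXR's signal to bile acid synthesis (chr4:133553376-133556536, plus strand), did not follow the receptor past the threshold. Vehicle mice ran from 18.2 to 54.1 CPM with a median of 28.0, and CORT mice from 31.7 to 55.2 with a median of 39.4. CORT+ENZA mice ran from 22.9 to 43.3 CPM with a median of 38.6. The 3 groups overlapped widely. Its log2 fold change with CORT was 0.38 ± 0.23 (adjusted p = 0.2806), with an interval from -0.11 to 0.86 that still holds the size of the Nr1h4 change.

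The hepatic receptor for FGF15 moved in both of its parts. Klb, the co-receptor gene (chr5:65348314-65384007, plus strand), had its lowest, median and highest levels at 38.8, 41.985 and 49.0 CPM in vehicle mice. In CORT mice they were 60.2, 65.0 and 79.6 CPM, and in CORT+ENZA mice 34.7, 43.5 and 48.4. The CORT mice did not overlap either other group, whereas vehicle and CORT+ENZA mice overlapped. Klb rose by 0.63 ± 0.09 with CORT (1.55-fold, adjusted p = 8.777e-05) and fell by 0.64 ± 0.09 on the log2 scale when ENZA was added (adjusted p = 8.045e-05), leaving a difference of -0.01 between CORT+ENZA and vehicle mice (95% interval -0.20 to 0.17).

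Fgfr4, the receptor tyrosine kinase gene (chr13:55152640-55168759, plus strand), was also higher with CORT and lower with added ENZA. Vehicle mice ran from 36.4 to 45.1 CPM (median 38.3), CORT mice from 40.4 to 56.2 (median 49.3) and CORT+ENZA mice from 32.6 to 45.5 (median 38.6). Each pair of groups overlapped. The CORT effect was 0.32 ± 0.09 (1.25-fold, adjusted p = 0.01708) and the added ENZA effect -0.35 ± 0.09 (adjusted p = 0.01438), with all 6 CORT+ENZA mice below the median CORT mouse. CORT+ENZA and vehicle mice differed by -0.03 (95% interval -0.22 to 0.15).

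Abcb11, the bile salt export pump gene and the member with the near match to IR-1 shown above (chr2:69238282-69342616, minus strand), climbed at both steps. Its lowest, median and highest levels were 700, 768 and 863 CPM in vehicle mice. In CORT mice they were 912, 1020 and 1205 CPM. In CORT+ENZA mice they were 922, 1435 and 1560 CPM, and 5 of these 6 lay at 1362 or more, above every CORT mouse. No CORT or CORT+ENZA mouse overlapped the vehicle group. Abcb11 rose by 0.43 ± 0.12 with CORT (1.35-fold, adjusted p = 0.01416) and by a further 0.41 ± 0.12 with added ENZA (1.33-fold, adjusted p = 0.02779), and stood 0.84 ± 0.12 above vehicle with both (1.78-fold, adjusted p = 4.252e-05). The step with added ENZA was lost when the CORT+ENZA library 16 or 17 or the CORT library 2, 3 or 26 was left out (adjusted p from 0.0514 to 0.06136), and was 0.49 (adjusted p = 0.0008713) without the vehicle library 11 and the CORT+ENZA library 18. Over all other settings its adjusted p ran from 0.0008713 to 0.04394. On the opposite strand Abcb11 shares exon bases with Gm13613 and Gm13614, which reached at most 0.155 CPM in any group.

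Abcb4 encodes the canalicular floppase that delivers phosphatidylcholine to bile, where it forms mixed micelles with bile acids (chr5:8893717-8959231, plus strand). Vehicle mice had a lowest, median and highest level of 151, 170 and 297 CPM. CORT mice had 210, 245 and 297 CPM, and CORT+ENZA mice 295, 332 and 399. The highest vehicle value belonged to the vehicle library 11, and the other 5 vehicle mice reached at most 199 CPM, below every CORT and CORT+ENZA mouse. Against vehicle Abcb4 was higher with both agents, by 0.84 ± 0.15 (1.79-fold, adjusted p = 0.0003878). The separate steps did not pass: 0.41 ± 0.14 for CORT (adjusted p = 0.05631) and 0.44 ± 0.14 for added ENZA (adjusted p = 0.05553). Without the vehicle library 11 and the CORT+ENZA library 18 both passed, at 0.58 (adjusted p = 0.0004794) and 0.47 (adjusted p = 0.004868). Over all other settings the adjusted p ran from 0.0004794 to 0.08024 for CORT and from 0.004868 to 0.09084 for added ENZA. Of the 50-base stretches of Abcb4, 3.42% also occur in another gene, so a small share of its reads could be split.

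Atp8b1, which encodes the flippase that keeps aminophospholipids on the inner side of the canalicular membrane (chromosome 18), passed in no chronic comparison. Vehicle mice ran from 43.5 to 73.9 CPM (median 55.3), CORT mice from 46.1 to 60.7 (median 56.4) and CORT+ENZA mice from 49.7 to 55.0 (median 52.5). Its log2 fold changes lay between -0.15 and -0.05, and the 95% interval of the CORT effect, -0.26 to 0.16, does not reach the estimate for Abcb11.

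Slc10a1, the gene of the uptake carrier (chr12:80953183-80968705, minus strand), was lower with added ENZA. Its lowest, median and highest levels were 905, 1050 and 1130 CPM in vehicle mice. In CORT mice they were 1046, 1393 and 1538 CPM, and in CORT+ENZA mice 584, 1035 and 1236. All 6 CORT+ENZA mice lay below the median CORT mouse, and the lowest of them was library 18. The difference from CORT mice was -0.44 ± 0.14 (adjusted p = 0.04316). It was lost without the CORT+ENZA library 5, 16 or 17 or the CORT library 2, 3, 26 or 27, and when the spread was estimated from the compared groups alone (adjusted p = 0.06671, the highest over all other settings, which began at 0.01469). Without the vehicle library 11 and the CORT+ENZA library 18 it was -0.34 (adjusted p = 0.03692). Against vehicle the CORT value was 0.38 ± 0.14 (adjusted p = 0.06525), and it passed without those libraries at 0.40 (adjusted p = 0.007366; range over all other settings 0.007366 to 0.0562).

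Slc51b, the gene of the β subunit of the basolateral bile acid exporter (chr9:65412714-65422955, minus strand), showed the largest fold change of the 9 in CORT+ENZA against vehicle mice. Its 6 vehicle mice stood at 0.0595, 0.106, 0.203, 0.229, 0.276 and 0.598 CPM. The 6 CORT mice stood at 0, 0.271, 0.399, 0.854, 1.09 and 1.73 CPM, and the 6 CORT+ENZA mice at 1.18, 1.42, 1.69, 1.99, 2.74 and 2.75. Every CORT+ENZA mouse lay above every vehicle mouse, with 23 to 50 counts against 1 to 10, while CORT mice overlapped both. With both agents Slc51b was 2.97 ± 0.59 higher on the log2 scale (7.85-fold, adjusted p = 0.001485). The CORT value was 1.55 ± 0.63 (adjusted p = 0.09592) and the added ENZA value 1.42 ± 0.51 (adjusted p = 0.07321). Slc51b shares exon bases with Rasl12 on the opposite strand, which was at 0 to 0.950 CPM in CORT+ENZA mice and 0 to 1.81 in vehicle mice. The gene of the exporter's α subunit, Slc51a, did not pass the filter on low counts.

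**Figure D3:**
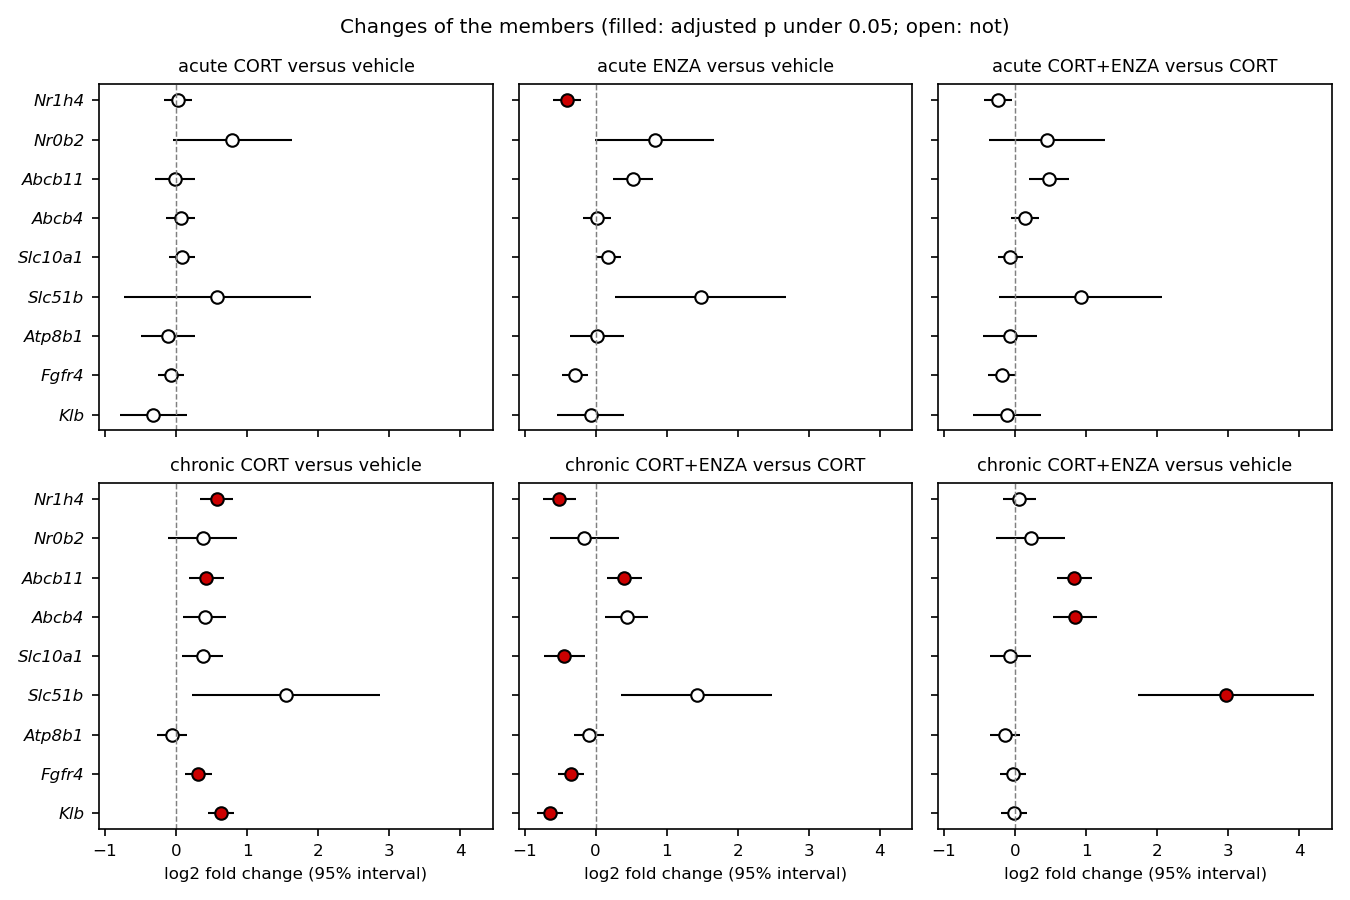
Log2 fold change of each of the 9 genes (points) with its 95% interval (lines) in 6 comparisons, acute above and chronic below; filled points passed an adjusted p under 0.05 in edgeR's test over all genes. In the chronic CORT comparison 4 genes are filled on the higher side; in the comparison of CORT+ENZA with CORT, 4 are filled on the lower side and Abcb11 on the higher side.

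In the acute arm 1 of the 9 genes passed the threshold in a comparison of groups, in mice given ENZA. CORT against vehicle called 0 of the 9 (0 also at an unadjusted p under 0.05, and 0 by DESeq2), against 1.62% of all genes tested. ENZA against vehicle called 1, Nr1h4, which was lower, against 1.31% of all genes in either direction and 0.466% lower. There DESeq2, scaling by its size factors (RLE) and a term for sets of 6 consecutive mouse numbers each called 2, with Abcb11 higher, while the fit with no filter on low counts and that of the compared groups alone called 0. CORT+ENZA against CORT called 0 of 9 (3 at an unadjusted p under 0.05), against 0.175% of all genes, and CORT+ENZA against ENZA called 0 (0 at an unadjusted p under 0.05), against 1.81%; DESeq2 also called 0 in both. CORT+ENZA against vehicle called 0 (6 at an unadjusted p under 0.05; DESeq2 called 1), against 2.47% of all genes. With the sets of mouse numbers as a term it called 2, Nr0b2 at 1.30 (adjusted p = 0.03441; 0.03441 to 0.2522 over all other settings) and Abcb11 at 0.46 (adjusted p = 0.0416; 0.02844 to 0.1066 over all other settings). Without L19A and L36A, CORT+ENZA against vehicle called Abcb11 alone, at 0.46 (adjusted p = 0.03109). The CORT by ENZA interaction called 0% of the 13733 genes (501 at an unadjusted p under 0.05, and 0 by DESeq2).

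**Figure D4:**
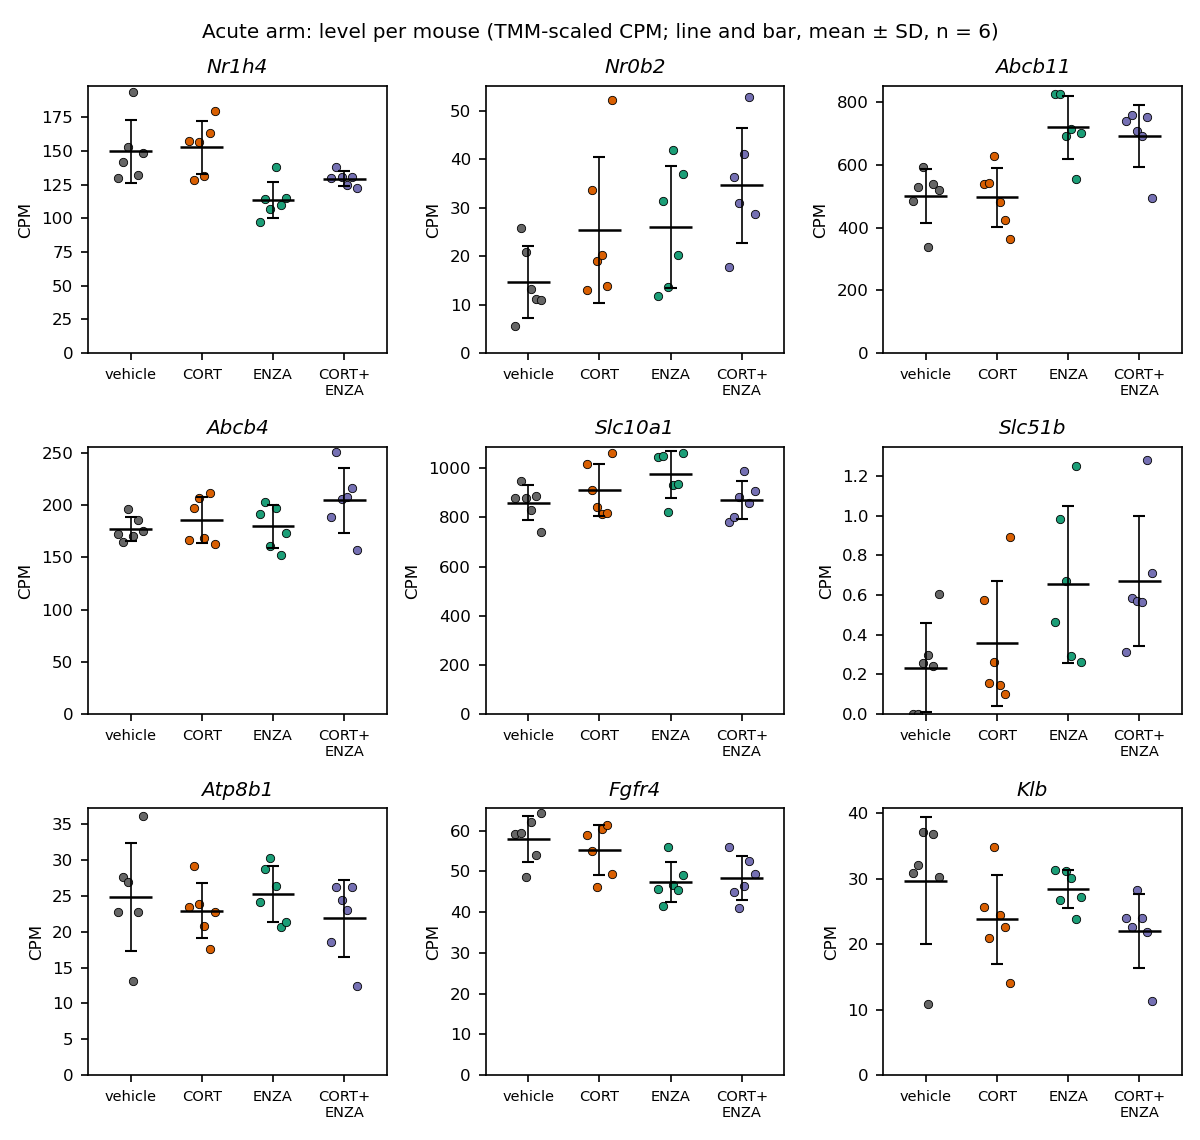
Level of each of the 9 genes in every acute library (CPM), by group; points are libraries, lines and bars the mean ± SD of 6. Nr1h4 stands at 97.6 to 138 CPM in ENZA mice against 130 to 193 in vehicle mice, and Abcb11 at 555 to 827 against 338 to 592.

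Nr1h4 had its lowest, median and highest level at 130, 145 and 193 CPM in acute vehicle mice and at 128, 157 and 180 CPM in acute CORT mice. In ENZA mice these were 97.6, 112 and 138 CPM, and in CORT+ENZA mice 122, 130 and 138. All 6 ENZA mice lay below the median vehicle mouse, and the ranges met between 130 and 138 CPM. The difference was -0.40 ± 0.10 (1.32-fold lower, adjusted p = 0.03499). It was lost without any of 8 libraries, the vehicle libraries L13A, L19A and L31A and the ENZA libraries L5A, L11A, L17A, L29A and L35A, with the smallest value of -0.31 (adjusted p = 0.07729) without L19A. Without L19A and L36A it was lost too, at -0.31 (adjusted p = 0.05966). Over all other settings the adjusted p ran from 0.005268 to 0.112. Added to CORT, ENZA gave -0.24 ± 0.10 (adjusted p = 0.8349).

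Abcb11 was just outside the threshold in the same comparison. Its lowest, median and highest levels were 338, 524 and 592 CPM in vehicle mice and 363, 510 and 627 in CORT mice. They were 555, 708 and 827 CPM in ENZA mice and 495, 723 and 759 in CORT+ENZA mice. All 6 ENZA mice lay above the median vehicle mouse, and 5 of 6 CORT+ENZA mice above the median CORT mouse. The ENZA effect was 0.52 ± 0.14 without CORT (1.44-fold, adjusted p = 0.05016) and 0.48 ± 0.14 with CORT (1.39-fold, adjusted p = 0.2902). Without L19A and L36A both passed, at 0.43 (adjusted p = 0.04426) and 0.56 (adjusted p = 0.01809); over all other settings of the same contrasts the adjusted p ran from 0.01053 (DESeq2) to 0.08933 and from 0.01809 to 0.4749. The lone CORT+ENZA mouse below its group was L36A.

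Averaged over mice with and without CORT, a contrast chosen after the interaction was seen to call no gene, ENZA called 3 of the 9, against 2.42% of all genes (1.62% higher and 0.801% lower). Abcb11 was higher by 0.50 ± 0.10 (adjusted p = 0.003541), Nr1h4 lower by a log2 fold change of -0.32 ± 0.07 (adjusted p = 0.009745) and Fgfr4 lower by a log2 fold change of -0.24 ± 0.06 (adjusted p = 0.04139). Fgfr4 ran from 48.7 to 64.4 CPM in vehicle, 46.2 to 61.4 in CORT, 41.5 to 56.0 in ENZA and 41.1 to 56.0 in CORT+ENZA mice, and neighbouring groups overlapped. Slc51b was 1.202 ± 0.40 on the log2 scale in this contrast (adjusted p = 0.1313), from 0 to 0.606 CPM in vehicle and 0.264 to 1.25 in ENZA mice. CORT mice ran from 0.100 to 0.893 CPM and CORT+ENZA mice from 0.313 to 1.28. Nr0b2 was 0.64 ± 0.28 (adjusted p = 0.2869). It ran from 5.57 to 25.8 CPM in vehicle and 11.9 to 41.8 in ENZA mice. With CORT it ran from 13.0 to 52.2 CPM without ENZA and 17.7 to 52.7 with ENZA, so the groups overlapped. Abcb4, Slc10a1, Atp8b1 and Klb lay between -0.09 and 0.08.

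Where the 2 arms share a contrast, the difference was tested in 1 model of all 42 libraries, in which arm and RNA kit cannot be told apart. The CORT effect was larger in the chronic arm for 3 of the 9, against 3.73% of all genes in that direction and 6.17% in either. For Klb the difference was 0.98 ± 0.26 (adjusted p = 0.01744), between an acute value of -0.32 and a chronic one of 0.63. For Nr1h4 it was 0.57 ± 0.15 (adjusted p = 0.01776), between 0.03 and 0.57, and for Fgfr4 0.42 ± 0.12 (adjusted p = 0.03329), between -0.07 and 0.32. The Fgfr4 difference was lost without any of 8 single libraries (acute L1A, L31A, L14A and L32A, chronic 1, 10, 14 and 25). With no filter on low counts it was lost too, at 0.40 (adjusted p = 0.1113; 0.02884 to 0.1113 over all other settings), as was that of Klb, at 0.98 (adjusted p = 0.06391; 1.899e-05 to 0.06391), which left Nr1h4 alone. Without L19A and L36A the CORT difference of Abcb11 passed as well, at 0.56 (adjusted p = 0.02632). Without the chronic libraries 11 and 18 that of Abcb4 passed, at 0.55 (adjusted p = 0.01173). The effect of adding ENZA to CORT differed between arms for 0 of the 9 (2 at an unadjusted p under 0.05, and 0 by DESeq2), against 1.27% of all genes. Without L19A and L36A, Klb passed there at -0.69 (adjusted p = 0.02174). The effect of both agents together was larger in the chronic arm for Abcb4 only, by 0.64 ± 0.18 (adjusted p = 0.02994), against 2.4% of all genes in that direction and 3.93% in either, and this was lost without any of 9 single libraries (acute L13A, L6A and L36A, chronic 10, 13, 14, 15, 17 and 4). It was also lost with the compared groups alone (0.65, adjusted p = 0.05629) and without L19A and L36A (0.58, adjusted p = 0.0616); over all other settings the adjusted p ran from 0.0001528 to 0.0616.

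Counts of 2 genes in the same library do not depend on the scaling between libraries. The log2 ratio of Abcb11 to Slc10a1 counts, export pump to uptake carrier, was -0.42 ± 0.17 in chronic vehicle mice and -0.36 ± 0.34 in CORT mice (SD, n = 6). In CORT+ENZA mice it was 0.50 ± 0.21, with values from 0.26 to 0.79, above the highest vehicle mouse (-0.15) and the highest CORT mouse (0.20). The log2 ratio of Abcb11 to Nr1h4 was 2.94 ± 0.35 and 2.78 ± 0.30 in chronic vehicle and CORT mice and 3.68 ± 0.24 in CORT+ENZA mice. In the acute arm that ratio was 1.73 ± 0.46 and 1.69 ± 0.41 in vehicle and CORT mice, and 2.66 ± 0.29 and 2.40 ± 0.19 in ENZA and CORT+ENZA mice. The log2 ratio of Abcb11 to Abcb4 was 2.06 ± 0.48, 2.05 ± 0.10 and 2.00 ± 0.21 in chronic vehicle, CORT and CORT+ENZA mice. The vehicle values ran from 1.24 to 2.46, against 1.91 to 2.14 in CORT and 1.64 to 2.22 in CORT+ENZA mice. Vehicle library 11 held both the lowest Abcb11 and the highest Abcb4 level of its group, so the vehicle mean and SD of this ratio depend on it. The ratio was not calculated without that library. In the acute arm it was 1.48 ± 0.25 and 1.40 ± 0.27 in vehicle and CORT mice, and 2.00 ± 0.11 and 1.75 ± 0.13 in ENZA and CORT+ENZA mice. These ratios are given without a test because the genes were chosen with their changes known.

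**Figure D5:**
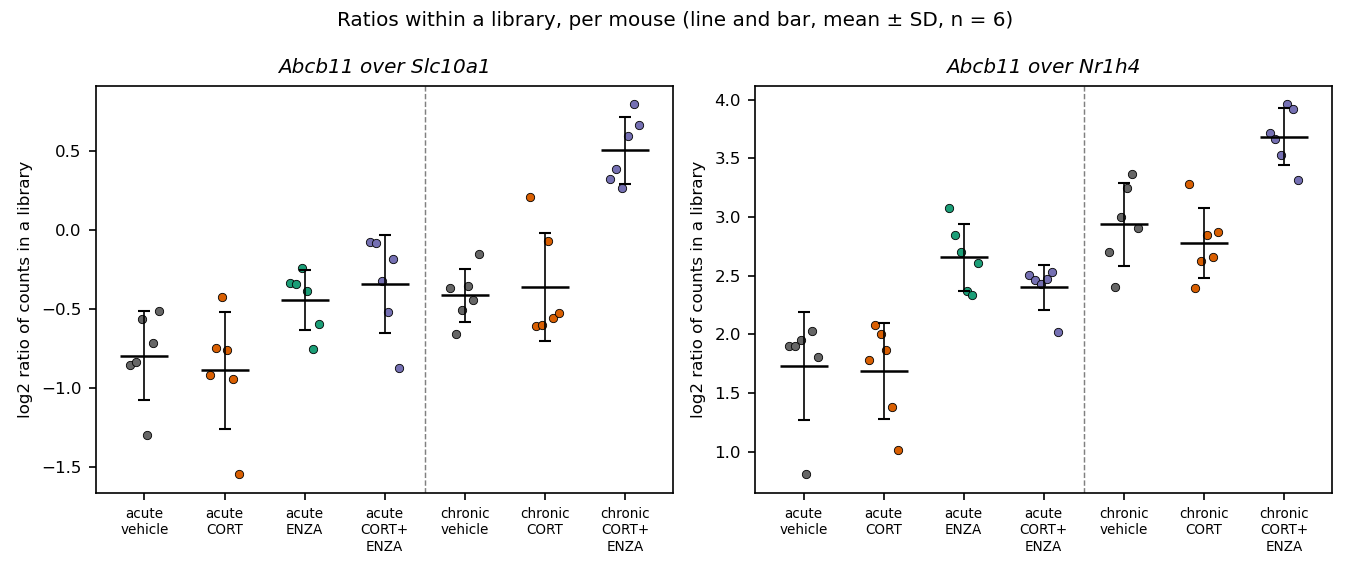
Log2 ratio of counts within each library for Abcb11 over Slc10a1 (left) and Abcb11 over Nr1h4 (right), by group; points are libraries, lines and bars the mean ± SD of 6, and the dashed line parts the acute from the chronic arm. The 6 chronic CORT+ENZA libraries lie from 0.26 to 0.79 for Abcb11 over Slc10a1, above every chronic vehicle (at most -0.15) and CORT library (at most 0.20).

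Of 16 genes of bile acid synthesis measured, 5 rose and 0 fell with chronic CORT (median log2 fold change 0.21, against -0.01 over all genes, of which 9.04% rose and 9.29% fell). Cyp39a1, an oxysterol hydroxylase, rose by 2.14 ± 0.17 (adjusted p = 1.126e-07) and Akr1d1, the reductase that sets the bent steroid ring of bile acids, by 0.67 ± 0.11 (adjusted p = 0.0003189). With ENZA added to CORT, 3 rose and 2 fell (median 0.12), against 6.99% and 4.86% of all genes. Akr1d1 rose a further 0.57 ± 0.11 (adjusted p = 0.001691), and Cyp39a1 fell by 0.82 ± 0.16 on the log2 scale (adjusted p = 0.002222). Cyp8b1 also fell, with a log2 fold change of -2.98 ± 0.65 (adjusted p = 0.006428). Against vehicle, CORT+ENZA mice had 6 higher and 1 lower (median 0.26), against 10.3% and 8.29% of all genes. In acute ENZA mice 1 rose and 2 fell (median 0.06), where 1.31% of all genes passed in either direction. Akr1d1 rose by 0.76 ± 0.15 (adjusted p = 0.01136) and Hsd3b7, an enzyme of the early ring changes, fell by 0.64 ± 0.15 on the log2 scale (adjusted p = 0.03023). Cyp8b1 fell too, with a log2 fold change of -1.13 ± 0.26 (adjusted p = 0.03044).

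Among 7 other sinusoidal carriers measured, 3 rose with ENZA added to chronic CORT and 0 fell (median 0.21), against 6.99% and 4.86% of all genes. Abcc3, a basolateral exporter of conjugated bile acids, rose by 2.20 ± 0.17 (adjusted p = 1.63e-07), after a fall with CORT of 0.71 ± 0.17 on the log2 scale (adjusted p = 0.007088), the 1 call among the 7 in that comparison (median -0.08), against 18.3% of all genes. Slco1a4, an organic anion uptake carrier, rose by 1.85 ± 0.32 (adjusted p = 0.001069). Against vehicle 3 of the 7 were higher (median 0.44; 10.3% of all genes), with Abcc3 up by 1.49 ± 0.17 (adjusted p = 5.515e-06). Acute CORT and acute ENZA called 0 of the 7 against vehicle (medians -0.11 and 0.20), against 1.62% and 1.31% of all genes.

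Of 16 other canalicular proteins, chronic CORT called 3 higher and 3 lower (median -0.02), added ENZA 3 higher and 0 lower (median 0.19), and both agents against vehicle 6 higher and 1 lower (median 0.13). The shares of all genes called higher and lower were 9.04% and 9.29%, 6.99% and 4.86%, and 10.3% and 8.29% in the same order. Abcb1a, a P-glycoprotein gene, rose by 1.85 ± 0.26 with CORT (adjusted p = 8.038e-05) and by 1.38 ± 0.23 with added ENZA (adjusted p = 0.0004971). It has a close paralog, Abcb1b, so its counts are uncertain where reads could be split. Abcc2, the canalicular exporter of conjugates, rose by 0.53 ± 0.16 with ENZA added to chronic CORT (adjusted p = 0.03163) and by 0.47 ± 0.10 in acute ENZA mice (adjusted p = 0.02063). Atp7b, a copper pump gene, fell by 0.43 ± 0.08 on the log2 scale with chronic CORT (adjusted p = 0.001328).

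A list of FXR partners and coregulators also held separate receptors (Nr1i2, Nr1i3 and S1pr2), and 15 of its genes were measured. Of these 15, chronic CORT called 1 higher, Hnf4a, at 0.27 ± 0.09 (adjusted p = 0.04675, list median 0.08), against 18.3% of all genes in either direction. With ENZA added, Hnf4a, a nuclear receptor that drives hepatocyte genes, fell by 0.31 ± 0.09 on the log2 scale and Nr5a2, the nuclear receptor LRH-1, by 0.28 ± 0.08 (both adjusted p = 0.03228; list median -0.13), against 4.86% of all genes lower. Nr1i2, which encodes the separate xenobiotic receptor PXR, was the list's 1 call in acute CORT (0.36 ± 0.08, adjusted p = 0.01025), acute ENZA (0.60 ± 0.08, adjusted p = 3.878e-05) and acute CORT+ENZA against CORT mice (0.43 ± 0.08, adjusted p = 0.005974). No FXR partner or coregulator of the list was called there. In chronic CORT+ENZA against vehicle mice it was 0.85 ± 0.17 higher (adjusted p = 0.001978). The 3 acute comparisons called 1.62%, 1.31% and 0.175% of all genes, and the list medians in the first and the second were -0.02 and -0.05.

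Of 10 measured further genes reported as FXR targets, chronic CORT called 2 higher and 1 lower (median 0.23), added ENZA 0 (median 0.06) and both agents against vehicle 3 higher and 2 lower (median 0.28), against 18.3%, 11.8% and 18.6% of all genes in either direction. C3, the complement component, rose by 0.60 ± 0.09 with chronic CORT (adjusted p = 0.0002045) and Pltp, a phospholipid transfer protein gene, fell by 0.94 ± 0.18 on the log2 scale (adjusted p = 0.001321). Of 17 genes of FGF receptor signalling, chronic CORT called 2 higher and 2 lower (median -0.03), added ENZA 0 higher and 1 lower (median -0.09) and both agents against vehicle 2 higher and 4 lower (median -0.12), beside the same shares of all genes. The ligand gene Fgf1 rose by 0.90 ± 0.15 with chronic CORT (adjusted p = 0.000398). The 2 lower genes were Shc1, with a log2 fold change of -0.33 ± 0.06 (adjusted p = 0.0004347), and Egr1, with -5.26 ± 0.94 (adjusted p = 0.001017). Egr1 averaged 1.14 CPM in chronic CORT mice. Fgfr3, another FGF receptor gene, fell by 0.54 ± 0.16 on the log2 scale with added ENZA (adjusted p = 0.03802).

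The genes whose levels ran most like each member over mice were ranked by the smaller of 2 Pearson r of log2 CPM, over 24 acute and over 18 chronic libraries, among 8858 genes with a mean of at least 5 CPM in both tables (8859 for Slc51b). The libraries share treatment groups, so these values describe likeness and carry no test. Abcb11 ran most like Srr (r = 0.90 and 0.88), then Cyp2c29 and Suclg2. Klb ran most like Tmprss6 (0.84 and 0.79), then Isoc1 and Xpot. Fgfr4 was nearest to B4galnt1 (0.78 and 0.77), Atp8b1 to Depdc5 (0.77 and 0.79) and Nr1h4 to Rmc1 (0.76 and 0.73). Slc51b was nearest to Gsta4 (0.74 and 0.85) and Abcb4 to Nceh1 (0.73 and 0.72). Nr0b2 (Eif3j1, 0.70 and 0.69) and Slc10a1 (Khk, 0.67 and 0.68) had the lowest leading values.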

How the data were processed

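The libraries hold liver mRNA of 42 male mice. Per the labels' protocols, mRNA was enriched and stranded libraries were read as 100-base pairs on a DNBseq instrument, with RNA from a Macherey-Nagel kit in the chronic arm and a Qiagen kit in the acute arm. The submitters' processing notes name HTSeq 0.12.4, STAR 2.7.3a, FastQC, MultiQC and the mm10 build; which annotation release and strand setting the counting used is not given in the sources used. The authors deposited 1 table of raw counts per gene for each arm, and the values are whole numbers. HTSeq's summary lines were kept out of the library totals and of every test; per library they held at most 2.85% ambiguous and 6.25% without a feature, and 9.34 to 12.8% (acute) or 18.6 to 22.7% (chronic) not uniquely aligned.

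Identifiers were matched to symbols, positions and exon lengths through GENCODE M21 (GRCm38, the same assembly as mm10; 55480 of 55573 matched). Genes were filtered with edgeR 4.0.16 in R 4.3.3 (filterByExpr, minimum count 10, minimum total 15), scaled by TMM, and tested with the quasi-likelihood test with robust dispersions on group means, over all libraries of an arm (13733 acute and 13099 chronic genes) or of both (14138). The prior count on the log scale was 2. Adjustment was by Benjamini-Hochberg across the genes tested, with calls under 0.05, and tests were 2-sided. Errors of fold changes are SE. Any 2 libraries of a group differed by a chi-square per degree of freedom of at least 10.6 (105 pairs), so all were kept as separate samples. The fit was tried on simulated counts with the same dispersion for every gene, for CORT against vehicle in each arm only. That trial does not cover genes as variable as Slc51b or Nr0b2. Alternatives were DESeq2 1.42.0, RLE size factors, no filter, the compared groups alone, sets of 6 consecutive acute mouse numbers as a term, and libraries left out. The 9 genes, the other lists and the alternatives were chosen with earlier results of these data known. Named genes are the 9 members, up to 2 called genes with the smallest p per other list and comparison, and the 3 genes most like each member, of which the nearest is given with values. Also named are Cyp8b1 and Egr1, for the size of their changes, and genes that show what a list holds.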

Additional observations from a re-analysis of the deposited data

Results flagged for a closer look

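In 8 of the 63 combinations of gene and group, the lowest or highest of the 6 libraries lay outside Dixon's 95% limit (0.625 for 6), where chance alone puts about 1 in 20. In the acute vehicle library L19A, Nr1h4 stood at 193 CPM (the other 5 at 130 to 153) and Klb at 10.9 CPM (the others at 30.3 to 37.2). In the acute CORT+ENZA library L36A, Abcb11 stood at 495 CPM (the others at 691 to 759). Abcb4 stood at 297 CPM in the chronic vehicle library 11 (the others at 151 to 199). In the chronic CORT group, Atp8b1 stood at 46.1 CPM in library 2 (the others at 56.3 to 60.7) and Klb at 79.6 CPM in library 27 (the others at 60.2 to 65.5). In the chronic CORT+ENZA library 18, Nr0b2 stood at 22.9 CPM (the others at 37.2 to 43.3) and Abcb11 at 922 CPM (the others at 1362 to 1560).

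For 4 genes an effect differed between the chronic and the acute arm by edgeR's test of the difference itself. The CORT effect was larger in the chronic arm by 0.57 for Nr1h4 (adjusted p = 0.01776), 0.42 for Fgfr4 (adjusted p = 0.03329) and 0.98 for Klb (adjusted p = 0.01744). The effect of both agents together was larger in the chronic arm by 0.64 for Abcb4 (adjusted p = 0.02994). The Fgfr4 difference was lost without any of 8 single libraries and the Abcb4 difference without any of 9, and with no filter on low counts 1 CORT difference was called, with Fgfr4 and Klb lost. The RNA kit differed between the arms and cannot be told apart from duration.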

How the results depend on the processing

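Of 617 values of the 9 genes under other settings, 586 kept their side of the threshold, as did 1680 of 1728 with 1 library left out; 73 had the opposite sign, and of these 0 passed in either fit. The causes of the changes below were not tested. In acute ENZA against vehicle, 1 of the 9 was called, but 2 under DESeq2, RLE size factors or the sets of mouse numbers as a term, 0 with no filter or the compared groups alone, and 3 as the mean ENZA effect over both CORT states, which was added after seeing the data. In acute CORT+ENZA against CORT, 0 became 1 without L19A and L36A. Against vehicle, 0 became 1 under DESeq2 or without those libraries and 2 with the sets as a term. Chronic CORT against vehicle went from 4 to 7 under DESeq2. Between the arms, the CORT difference went from 3 to 1 with no filter, the added ENZA difference from 0 to 1 without L19A and L36A, and the combination difference from 1 to 0 with the compared groups alone or without L19A and L36A. With 1 library left out, members called ran from 0 to 1 for acute ENZA and for acute CORT+ENZA against vehicle, from 4 to 5, 3 to 6 and 3 to 3 for chronic CORT, added ENZA and both against vehicle, and from 2 to 4, 0 to 0 and 0 to 1 for the 3 differences between arms; in the other acute comparisons they stayed at 0. No paired analysis was possible because the labels repeat no replicate number between the groups of an arm; the sets of consecutive acute mouse numbers, which the labels do not call batches, were fitted as a term in its place.

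Calls over all genes moved by more than 1.5 times under these other settings. Acute CORT against vehicle had 222, but 432 under DESeq2 and 96 with the compared groups alone. Acute ENZA had 180, but 392 under DESeq2, 90 with no filter, 94 with the compared groups alone and 333 as the mean ENZA effect. Acute CORT+ENZA had 24 against CORT (59 under DESeq2, 39 without L19A and L36A), 248 against ENZA (461 under DESeq2, 156 with no filter) and 339 against vehicle (584 under DESeq2, 203 with the compared groups alone). Between arms, the CORT difference had 873 (509 with no filter, 1373 without the chronic libraries 11 and 18), the added ENZA difference 179 (313 under DESeq2) and the combination difference 555 (953 without 11 and 18). With 1 library left out, calls over all genes ran from 135 to 323 for acute CORT (135 to 138 without L8A, L25A, L26A or L32A), from 77 to 156 for acute ENZA (77 to 114 without L1A, L11A, L25A, L29A or L35A), from 14 to 22 for acute CORT+ENZA against CORT (14 to 15 without L18A, L20A, L26A or L30A), from 118 to 253 against ENZA (118 to 157 without L5A, L6A, L12A, L17A, L29A or L35A) and from 207 to 413 against vehicle (207 to 221 without L1A, L24A or L25A); in the other comparisons they stayed within 1.5 times. Slc51b has few reads, so its fold changes have the widest intervals of the 9.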
